A study of Mus musculus with 18 samples.

Results

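Genes that moved alike under 2 NUTM1 fusions were sought in mouse bone marrow cells on day 6. The mean of the BN1 and AFFN1 groups, each given equal weight, was set against control. A gene was taken as shared when it was called in that comparison (adjusted p under 0.05 by edgeR's quasi-likelihood test) and when all 6 fusion libraries lay above, or all 6 below, all 3 control libraries. Of 12068 tested genes 1318 met both conditions, 747 higher and 571 lower in the fusions. The comparison uses 9 of the 18 libraries of the series, 3 in each group. All groups were CD45.2+ bone marrow cells of strain C57BL/6 and were sorted as iLS cells, a label that is not spelled out in the sources used here. The control carried no fusion (Mock), BN1 cells carried BRD9-NUTM1 and AFFN1 cells carried AFF1-NUTM1. The labels give neither the species of the NUTM1 part, nor the age of the mice, nor the event from which the days are counted. They do not say that replicates came from separate cultures or animals, so p-values cover the spread of these samples alone, and that spread may be technical. The other 9 libraries are the same 3 groups on day 14, and they are used here only to follow the genes chosen on day 6.

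NUTM1 is normally active in the testis, and its protein binds the acetyltransferases p300 and CBP. In leukemia of infants it is found joined to other genes. BRD9 is a bromodomain subunit of the SWI/SNF chromatin remodelling complexes, and AFF1 is a scaffold of the super elongation complex, which releases paused RNA polymerase. The Hoxa genes and their cofactor gene Meis1 are active in early blood progenitors and are usually shut down as B-cell precursors mature, under transcription factors such as Ebf1 and Pax5.

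Total expected counts were 14182539 to 17702578 in the control libraries, 15358130 to 17011527 in BN1 and 15068755 to 16691659 in AFFN1. Levels are in CPM, the usual depth-scaled counts, with library totals scaled by TMM, and they are not per length, so levels of different genes are not compared. Ptprc, which encodes the CD45 antigen used in the sort, was at 302 to 461 CPM in every library and was not called (adjusted p = 0.0722). The 20 pro-B and pre-B cell genes together held 7425 to 11510 CPM in every library. Of 18 myeloid cell genes, Mpo, Elane, Ctsg and S100a9 had 0 reads in all 9 libraries. Others of that list had reads, such as S100a8 with 0, 2 and 5 in control, BN1 and AFFN1. The sums of the myeloid list are given below. Mouse Nutm1 had 2 reads in control and 0 in either fusion. The libraries numbered 3 of control and BN1 stood apart in 18 immediate early and heat shock genes, which summed to 1764 and 3502 CPM there and to 915.4 to 1083 in the other 7. AFFN1 libraries 1 and 2 were closer to each other (chi-square per degree of freedom 3.84) than the other pairs of libraries within a group on day 6 (11 to 46.3). Without control 3 the shared genes numbered 2675, and 1224 of the 1318 (92.9%) were among them. Without all 3 libraries numbered 3 they numbered 3972, with 1270 of the 1318 (96.4%) among them.

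In the averaged comparison 1963 genes were called (16.3%), of which 1025 were higher (8.49%) and 938 lower (7.77%). Whether called or not, 1808 genes (15.0%) had all fusion libraries on one side of all controls. The shared rises were 6.19% and the shared falls 4.73% of the tested genes. The number called was 1111, 1170 and 3206 without control 1, control 2 and control 3, and 1288 and 1305 without AFFN1 1 and AFFN1 2. A further 645 called genes had overlapping groups, and 490 genes with separate groups were not called. Just inside the threshold lay Tmod1, Tmem183a and Ulk4, at adjusted p = 0.0498, 0.0495 and 0.0494. Just outside lay Usp3, Capn7 and Senp7, at adjusted p of up to 0.0501.

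BN1 against control and AFFN1 against control rest on the same 3 control libraries, so their likeness is no independent evidence and each is given by its own values. Of the 747 rises 475 were called in each fusion alone, 141 in BN1 only, 107 in AFFN1 only and 24 in neither alone. Of the 571 falls these numbers were 252, 196, 82 and 41. Rises were more than 2-fold in both fusions for 274 genes, more than 4-fold for 104 and more than 8-fold for 52. Falls exceeded those folds in both fusions for 134, 52 and 16 genes. In many genes the shared change was small: its smaller side was under 1.5-fold for 294 rises and 337 falls. The median size on the log2 scale was 0.895 for rises and 0.61 for falls. Rises often started low, with a median control level of 11.6 CPM, against 41.9 for falls and 32.4 for all tested genes. In 141 rises the control mean was under 1 CPM, and 135 of these would not have passed the filter on low counts (0.631 CPM in 3 libraries) through the control libraries alone.

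**Figure D1:**
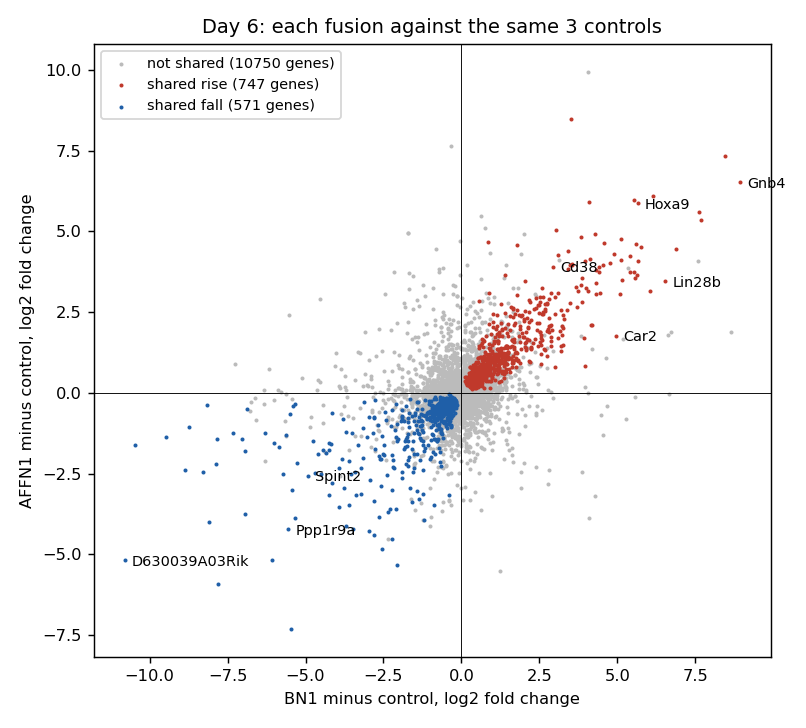
Log2 fold change of each tested gene on day 6, BN1 against control on the horizontal axis and AFFN1 against control on the vertical axis. Each point is 1 gene; red points are the 747 shared rises, blue points the 571 shared falls and grey points the rest, and both axes share the same 3 control libraries.

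The Hoxa genes stood near zero in control and came up in both fusions. They are homeobox transcription factors, and 11 of them lie in 1 cluster on chromosome 6. Hoxa9 stood at 0.38, 0.146 and 0.283 CPM in control, at 17.1, 17.5 and 8.22 in BN1 and at 19.4, 15.6 and 15 in AFFN1. Every fusion library was far above every control, and the lowest was BN1 3. Hoxa9 (ENSMUSG00000038227; mm10 chromosome 6, 52223100 to 52231089, minus strand) was thus 50.5-fold higher in BN1 and 58.8-fold higher in AFFN1 (log2 fold change 5.77, SE 0.39, adjusted p = 1.03e-05). For Hoxa7 the values were 1.52, 0.659 and 0.396 CPM in control, 18.7, 12.6 and 9.23 in BN1 and 16.5, 14.4 and 13.2 in AFFN1. It rose by 4.03 on the log2 scale, and by 4.76 without control 1. Hoxa5 had 1 read in control, 66 in BN1 and 88 in AFFN1. These counts give ratios of 63.95 for BN1 (95% counting interval 11.09 to 2564) and 86.36 for AFFN1 (15.1 to 3449), and the single control read was in control 1. Intervals of this kind cover counting error only. In all, 5 of the 11 cluster genes passed the filter and 4 of them were called higher, 3 with separate groups. The exception was Hoxa3, called with overlapping groups. Hoxa6 and Hoxa10 were too low to test, with 0 and 2 reads in control, 15 and 16 in BN1, and 14 and 13 in AFFN1. Hoxa11 had no reads at all.

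The 250 bases before the annotated starts of Hoxa9 and Hoxa5 are shown because the genes lie in 1 cluster and rose together. The windows use RefSeq starts, which are 22.8 kb apart, and for Hoxa9 that start lies 3.7 kb downstream of the GENCODE start in the span given above. They are printed 5′ to 3′ on the gene's strand (RefSeq, GRCm38.p6), and capitals mark matches to CAGCTG, a site form bound by E proteins, or TATAAA, the TATA box. Both motifs were searched on both strands, and neither can overlap the other.
Hoxa9, chr6:52227371-52227620, minus strand: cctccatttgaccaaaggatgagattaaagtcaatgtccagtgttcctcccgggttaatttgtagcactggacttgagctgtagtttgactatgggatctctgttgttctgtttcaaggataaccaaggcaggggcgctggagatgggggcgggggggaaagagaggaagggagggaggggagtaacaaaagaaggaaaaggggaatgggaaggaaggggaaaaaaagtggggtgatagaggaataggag
Hoxa5, chr6:52204588-52204837, minus strand: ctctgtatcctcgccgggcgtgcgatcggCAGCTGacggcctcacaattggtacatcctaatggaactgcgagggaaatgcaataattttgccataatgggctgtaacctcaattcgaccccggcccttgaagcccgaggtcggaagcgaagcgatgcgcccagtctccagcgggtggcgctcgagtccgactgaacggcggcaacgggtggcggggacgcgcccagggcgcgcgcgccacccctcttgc
The Hoxa9 window held 3 CG dinucleotides and no match, and the Hoxa5 window 28 and 1 match to CAGCTG. Each printed window is the gene's first listed one that overlaps no annotated untranslated region. Of 27025 windows of the same length, the first listed per gene without that rule, 12.8% held CAGCTG and 13% TATAAA. Their median number of CG dinucleotides was 6. The letters describe the windows only, since no binding was measured.

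Hox proteins bind DNA with partners of the MEIS and PBX families. Meis1 was at 4.12, 3.52 and 1.92 CPM in the control libraries, 23, 16.2 and 12.9 in BN1 and 22, 22.1 and 18.2 in AFFN1. Meis1 was higher in each fusion library than in any control, 5.49-fold in BN1 and 6.56-fold in AFFN1 (log2 fold change 2.59, SE 0.26, adjusted p = 0.000166). Flt3 stood at 40.7, 37.1 and 33.5 CPM in control, at 98.1, 86.2 and 73 in BN1 and at 151, 146 and 102 in AFFN1. Flt3, whose product is a growth factor receptor on early progenitors, rose in both fusions and more in AFFN1. Pbx3 and Pbx2, genes of further cofactors, rose by 0.61 and 0.39 on the log2 scale. The call of Pbx3 ended without control 1 (adjusted p = 0.0738). Of 14 tested Hox cofactors and target genes of KMT2A fusions 6 were called higher, 4 of them shared, and none lower, with a median log2 fold change of 0.354 against -0.0244 over all tested genes. No gene was called among the 8 tested of Bmi1 and its chromosomal neighbours, where 4 had an unadjusted p under 0.05 and DESeq2 called 2. Bmi1, a polycomb gene, was at 88.7 to 93.6 CPM in control, 94.9 to 111 in BN1 and 73.8 to 89.4 in AFFN1.

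**Figure D2:**
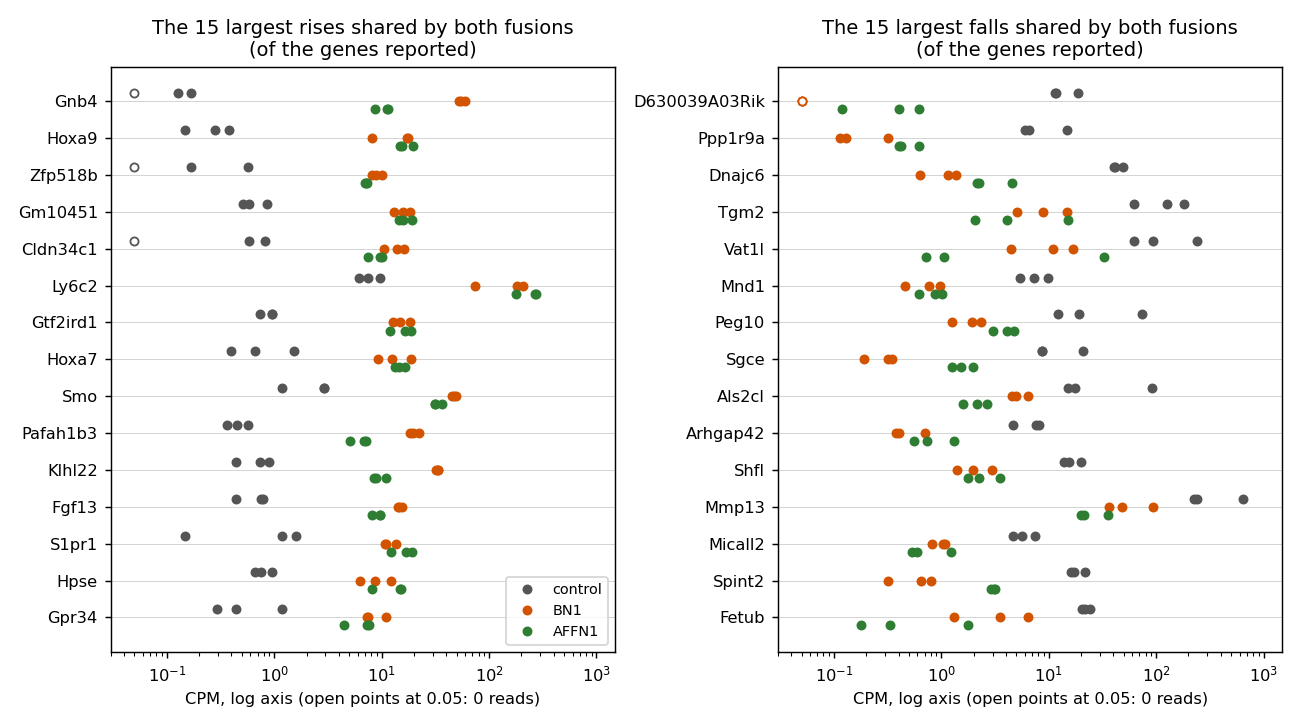
CPM on a log axis in each of the 9 libraries of day 6 for the 15 largest shared rises (left) and falls (right) of the genes reported here, ordered by the smaller of both fusions' changes. Each point is 1 library, in grey for control, orange for BN1 and green for AFFN1, and open points at 0.05 stand for 0 reads; in every gene the 6 fusion points lie on one side of the 3 control points.

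Beyond the Hoxa genes, most of the largest shared rises were in genes that were low in control. The ranking asked for at least 5 CPM in each fusion group and set no floor in control, so it favours such genes. Gnb4 was at 0.127, 0 and 0.17 CPM in the control libraries, 52.8, 55 and 59.4 in BN1 and 11.1, 11.6 and 8.62 in AFFN1. Gnb4, which encodes a G protein beta subunit, rose 490.1-fold in BN1 and 91.9-fold in AFFN1, and its BN1 libraries stood well above its AFFN1 libraries. The averaged log2 fold change of Gnb4 was 7.73, and 8.33 without control 3. Zfp518b stood at 0.57, 0 and 0.17 CPM in control, at 8.79, 10.1 and 8.22 in BN1 and at 6.94, 7.33 and 7.14 in AFFN1. Zfp518b encodes a zinc finger protein and rose 34.5-fold in BN1 and 27.3-fold in AFFN1, and its averaged log2 fold change of 4.94 was 6.29 without control 1. For Gm10451 the values were 0.507, 0.586 and 0.849 CPM in control, 15.9, 18.4 and 13.1 in BN1 and 19, 15.7 and 14.5 in AFFN1. Gm10451, a long intergenic non-coding RNA (ENSMUSG00000073000; mm10 chromosome 12, 76444497 to 76451336, plus strand), rose by almost the same factor in both, 23.9-fold in BN1 and 24.8-fold in AFFN1. Gtf2ird1 was at 0.95, 0.952 and 0.736 CPM in the control libraries, 12.8, 14.8 and 18.4 in BN1 and 18.9, 16.4 and 11.9 in AFFN1. Gtf2ird1, a relative of the transcription factor TFII-I, did likewise, with 17.4-fold in BN1 and 17.9-fold in AFFN1. In these last 2 genes BN1 and AFFN1 differed by -0.06 and -0.04 on the log2 scale (SE 0.17 and 0.19).

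Among the receptors and signalling genes, Smo stood at 2.91, 1.17 and 2.89 CPM in control, at 45.3, 49.8 and 47.6 in BN1 and at 31.6, 36.2 and 31.1 in AFFN1. Smo transduces Hedgehog signals and rose 20.0-fold in BN1 and 13.9-fold in AFFN1. S1pr1 was at 1.58, 0.146 and 1.19 CPM in the control libraries, 13.6, 10.9 and 10.7 in BN1 and 17, 19.3 and 12.3 in AFFN1. S1pr1 is a receptor for sphingosine 1-phosphate that guides lymphocytes out of tissues, and it rose 11.6-fold in BN1 and 16-fold in AFFN1. Fgf13 stood at 0.76, 0.44 and 0.792 CPM in control, at 14.4, 14.2 and 15.5 in BN1 and at 9.67, 9.6 and 8.07 in AFFN1. Fgf13, which encodes a fibroblast growth factor homologue that acts inside cells, rose 21.5-fold in BN1 and 13.4-fold in AFFN1. Gpr34 stood at 0.444, 0.293 and 1.19 CPM in control, at 11, 7.28 and 7.39 in BN1 and at 7.27, 7.69 and 4.5 in AFFN1. Gpr34, a G protein-coupled receptor, rose 12.7-fold in BN1 and 9.64-fold in AFFN1, and its averaged log2 fold change of 3.47 was 4.31 without control 3. Hpse, which encodes heparanase, rose 11.3-fold in BN1 and 15.7-fold in AFFN1. Pafah1b3 was at 0.57, 0.366 and 0.453 CPM in the control libraries, 22.1, 19.5 and 18.5 in BN1 and 7.14, 6.86 and 5.11 in AFFN1. Pafah1b3, a subunit of an enzyme that inactivates platelet-activating factor, rose 42.3-fold in BN1 and 13.4-fold in AFFN1. Klhl22 stood at 0.887, 0.44 and 0.736 CPM in control, at 33.7, 33.3 and 31.9 in BN1 and at 8.94, 8.41 and 11 in AFFN1. Klhl22, an adaptor of a ubiquitin ligase, rose 46.8-fold in BN1 and 13.4-fold in AFFN1. Cldn34c1 and Ly6c2 rose 29.5-fold in BN1 and 19.9-fold in AFFN1 and 19.6-fold in BN1 and 30.6-fold in AFFN1. Without control 1 and without control 3 the averaged log2 fold change of Cldn34c1, 4.60, was 5.38 and 3.97. Both genes belong to families of close copies, between which the authors' counting may have split reads. Ly6c2, a surface antigen of monocytes, was at 6.15 to 9.69 CPM in control and 73.2 to 273 in the fusions.

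The largest shared falls, ranked among genes with at least 5 CPM in control, brought several genes close to zero in both fusions. D630039A03Rik was at 11.4, 18.9 and 11.6 CPM in the control libraries, 0, 0 and 0 in BN1 and 0.4, 0.119 and 0.616 in AFFN1. No read was counted in BN1, against 643 in control, so D630039A03Rik, a protein-coding gene of chromosome 4 without a functional name, was at least 221.2-fold lower there (floor of 3 reads over the group). In AFFN1 it was 36.4-fold lower. Dnajc6 stood at 40.5, 41.7 and 48.8 CPM in control, at 1.38, 1.16 and 0.637 in BN1 and at 2.13, 2.27 and 4.56 in AFFN1. Dnajc6 encodes auxilin, which strips clathrin from vesicles, and it fell 40.7-fold in BN1 and 14.6-fold in AFFN1. For Spint2 the values were 17.2, 16 and 21.7 CPM in control, 0.804, 0.645 and 0.318 in BN1 and 2.93, 3.16 and 3.08 in AFFN1. Spint2, an inhibitor of serine proteases, fell 30.4-fold in BN1 and 5.97-fold in AFFN1. Fetub was at 21.5, 24.2 and 20.3 CPM in the control libraries, 1.32, 6.45 and 3.5 in BN1 and 0.333, 0.179 and 1.79 in AFFN1. Fetub, which encodes a secreted fetuin, fell 5.89-fold in BN1 and 28.3-fold in AFFN1, and its averaged log2 fold change of -3.69 was -4.48 without AFFN1 3. Mnd1 stood at 5.45, 9.89 and 7.36 CPM in control, at 0.46, 0.967 and 0.764 in BN1 and at 0.867, 1.01 and 0.616 in AFFN1. Mnd1, a factor of meiotic recombination, fell 10.3-fold in BN1 and 8.99-fold in AFFN1. Shfl was at 13.8, 19.8 and 15.3 CPM in the control libraries, 1.95, 2.97 and 1.4 in BN1 and 2.27, 1.79 and 3.51 in AFFN1. Shfl, an antiviral inhibitor of frameshifting, fell 7.71-fold in BN1 and 6.43-fold in AFFN1.

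The other large falls included genes of a secreted protease, of enzymes and of regulators of small GTPases. Mmp13 stood at 227, 239.9 and 644 CPM in control, at 36.6, 47.6 and 94.5 in BN1 and at 21.3, 19.9 and 35.7 in AFFN1. Mmp13 encodes a collagenase and fell 6.22-fold in BN1 and 14.4-fold in AFFN1, with control 3 well above the other controls and an averaged log2 fold change of -3.24, or -2.56 without control 3. For Tgm2 the values were 62.6, 127 and 179.9 CPM in control, 5.11, 14.9 and 8.79 in BN1 and 2.07, 4.05 and 15 in AFFN1. Tgm2, a transglutaminase that crosslinks proteins, fell 12.9-fold in BN1 and 17.4-fold in AFFN1, and its controls ranged widely. Its averaged log2 fold change was -3.90, and -4.50 without AFFN1 3. Arhgap42, a GTPase-activating protein, fell 13.5-fold in BN1 and 7.72-fold in AFFN1. Micall2, an effector of Rab13, fell 5.99-fold in BN1 and 7.46-fold in AFFN1. Als2cl was at 17.7, 15 and 90.8 CPM in the control libraries, 4.94, 4.51 and 6.43 in BN1 and 2.13, 1.61 and 2.65 in AFFN1. Als2cl, related to the guanine nucleotide exchange factor alsin, fell 7.8-fold in BN1 and 19.4-fold in AFFN1. Control 3 was far above the other controls, and without it the averaged log2 fold change of -3.62 was -2.26. Vat1l stood at 93.3, 238 and 61.8 CPM in control, at 4.42, 17 and 11 in BN1 and at 1.07, 0.715 and 33.1 in AFFN1. AFFN1 3 stood apart from the other AFFN1 libraries in Vat1l, and its call was the weakest of the 15 (log2 fold change -3.54, SE 0.98, adjusted p = 0.049). It ended without filtering, with the 6 fusion libraries as 1 group and without any 1 of 8 libraries, at adjusted p up to 0.218, while without AFFN1 3 its log2 fold change was -5.40 (adjusted p = 0.00374).

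Sgce, Peg10 and Ppp1r9a, which are among the 15 largest falls, lie side by side on chromosome 6. Peg10 derives from a retrotransposon and is expressed from the paternal allele, as is Sgce, which encodes epsilon-sarcoglycan. Ppp1r9a encodes the actin-binding protein neurabin. Peg10 was at 18.9, 12.3 and 74.6 CPM in the control libraries, 1.26, 1.93 and 2.36 in BN1 and 4.07, 3.04 and 4.74 in AFFN1. Control 3 was several times above the other controls, and every fusion library was below all of them. The averaged log2 fold change of Peg10 was -3.71, and -2.52 without control 3. Sgce stood at 8.74, 8.64 and 20.8 CPM in control, at 0.345, 0.322 and 0.191 in BN1 and at 1.53, 1.25 and 1.97 in AFFN1. For Ppp1r9a the values were 6.02, 6.52 and 14.7 CPM in control, 0.115, 0.129 and 0.318 in BN1 and 0.4, 0.417 and 0.616 in AFFN1. The starts of Sgce and Peg10 are 0.1 kb apart and Ppp1r9a starts 155.6 kb further on. The falls were 43.2-fold in BN1 and 8.02-fold in AFFN1 for Sgce, 19.2-fold in BN1 and 8.96-fold in AFFN1 for Peg10 and 47.2-fold in BN1 and 18.8-fold in AFFN1 for Ppp1r9a. The tested neighbours on either side, Casd1, Col1a2 and Bet1 on one and Pon2 on the other, were not called, with averaged log2 fold changes of -0.03, 0.20, -0.07 and 0.06. The region was described after its values were seen, and allele-specific expression was not measured.

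Another shared gene lay within 100 kb of 201 of the 747 rises (26.9%), counting rises only, and of 127 of the 571 falls (22.2%), counting falls only. Over all tested genes with a position these shares were 18.5% and 14.4%. Such neighbours formed runs in many places, among them a run of 5 falls and a run of 5 rises on chromosome 8, not described further. Apart from the Hoxa genes, the runs described are those of 2 families of GTPases, which too were chosen after their values were seen. Over all tested genes 6.19% were shared rises and 4.73% shared falls. Gimap genes encode GTPases of lymphocyte survival and lie together on chromosome 6, where 5 of 8 tested members rose in both fusions. Gimap3 was at 19, 8.28 and 16.6 CPM in the control libraries, 88.4, 70.3 and 61.1 in BN1 and 99.8, 102 and 68.4 in AFFN1. Gimap4 stood at 76.7, 64.2 and 84.4 CPM in control, at 179.6, 208 and 125 in BN1 and at 258, 253 and 172 in AFFN1. The lowest fusion library was well above the highest control in both. Gimap7, Gimap8 and Gimap1 had averaged log2 fold changes of 1.02, 0.77 and 0.39. Gimap6, Gimap5 and Gimap9 were not called, at 0.55, 0.39 and 0.10. Gbp genes encode guanylate-binding proteins induced by interferon gamma. Of 9 tested, 5 were shared falls, 4 of them in a run on chromosome 3. Taken alone, Gbp2 was not called in AFFN1 (adjusted p = 0.116) and Gbp8 was not called in BN1 (adjusted p = 0.0694). Gbp5 was at 19.2, 39.2 and 24.4 CPM in the control libraries, 10.8, 11.2 and 9.68 in BN1 and 10.3, 9.42 and 15.5 in AFFN1. Gbp3 stood at 49.9, 64.6 and 50.7 CPM in control, at 24, 33.4 and 23.2 in BN1 and at 34.6, 36 and 37.6 in AFFN1. The fusion libraries were all below the controls, at up to 15.5 CPM for Gbp5 and 37.6 for Gbp3. Gbp2 and Gbp7 fell by 0.60 and 0.67 on the log2 scale. Gbp8 stood at 12, 12.2 and 44.2 CPM in control, at 8.45, 8.38 and 8.85 in BN1 and at 2.67, 2.09 and 3.51 in AFFN1. Gbp8 fell by 2.24 on the log2 scale, and by 1.30 without control 3, the highest control. Gbp4 was called lower with overlapping groups, and Gbp6, Gbp9 and Gbp10 were not called. Close copies within both families may share reads.

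Windows before Gimap3, Gimap8 and Gbp7 are shown as examples of family members that moved in opposite directions, with the same motifs searched.
Gimap3, chr6:48770852-48771101, minus strand: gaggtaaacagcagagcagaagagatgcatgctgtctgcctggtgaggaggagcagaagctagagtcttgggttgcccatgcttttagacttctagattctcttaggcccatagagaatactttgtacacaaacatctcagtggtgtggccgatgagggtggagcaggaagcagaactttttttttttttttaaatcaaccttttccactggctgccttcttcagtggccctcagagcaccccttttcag
Gimap8, chr6:48646984-48647233, plus strand: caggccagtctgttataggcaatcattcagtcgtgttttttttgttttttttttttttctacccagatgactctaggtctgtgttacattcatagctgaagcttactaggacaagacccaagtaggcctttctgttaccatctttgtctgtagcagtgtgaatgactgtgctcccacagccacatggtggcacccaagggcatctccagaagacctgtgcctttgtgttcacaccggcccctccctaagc
Gbp7, chr3:142530086-142530335, plus strand: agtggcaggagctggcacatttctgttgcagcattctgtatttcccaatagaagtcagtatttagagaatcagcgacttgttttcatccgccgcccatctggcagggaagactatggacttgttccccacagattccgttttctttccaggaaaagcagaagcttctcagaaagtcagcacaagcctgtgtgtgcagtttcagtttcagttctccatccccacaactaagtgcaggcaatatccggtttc
None held either motif, and they had 1, 2 and 5 CG dinucleotides, below the median of all windows.

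**Figure D3:**
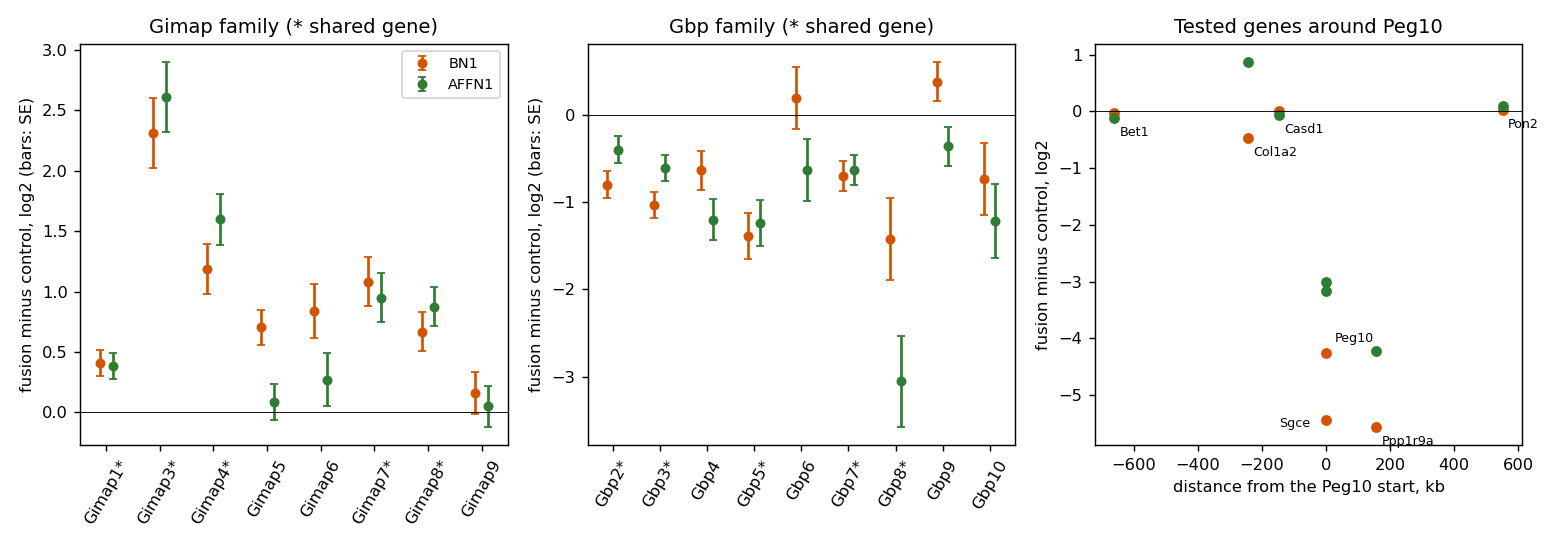
Log2 fold change of BN1 (orange) and AFFN1 (green) against the same controls for tested Gimap genes (left), tested Gbp genes (middle; bars are SE, asterisks mark shared genes) and tested genes by distance of their start from that of Peg10 in kb (right). The shared Gimap genes lie above 0, the shared Gbp genes below it, and around Peg10 the points of Sgce, Peg10 and Ppp1r9a lie far below those of their neighbours.

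The 30 gene lists described next were chosen with earlier results of these data known, so their counts describe them and support nothing further. Where a list holds genes near zero in control, those that passed the filter did so through the fusions, which tilts its count towards rises. Over all tested genes the shares called were 8.49% higher and 7.77% lower.

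B-lineage genes rose more often than they fell. Of 17 transcription factors of the B lineage, all tested, 6 were called higher, 5 of them shared, and 3 lower, 1 of them shared (median log2 fold change 0.127). Irf4 was at 29.7, 22.6 and 41.9 CPM in the control libraries, 117, 72.3 and 106 in BN1 and 72.9, 78.2 and 56.7 in AFFN1. Irf4, which acts in pre-B and plasma cells, rose by 1.39 on the log2 scale. Bach2 stood at 93.1, 75.7 and 111 CPM in control, at 263, 190.3 and 239.8 in BN1 and at 165, 149 and 117 in AFFN1. Bach2 rose 2.47-fold in BN1 and 1.53-fold in AFFN1. Ikzf1 was at 345, 281 and 343 CPM in the control libraries, 543, 534 and 505 in BN1 and 539, 529.6 and 439 in AFFN1. Ikaros, the product of Ikzf1, opens lymphoid development, and the gene rose 1.63-fold in BN1 and 1.56-fold in AFFN1. Pax5, the factor that commits cells to the B lineage, rose 1.41-fold in BN1 and 1.29-fold in AFFN1. Spib stood at 77.4, 74.6 and 143 CPM in control, at 39, 24 and 16.1 in BN1 and at 59, 55.9 and 64.4 in AFFN1. Spib, an Ets factor, fell by more in BN1 than in AFFN1 by its means, a difference that was not called (adjusted p = 0.058). Its call ended with the 6 fusion libraries as 1 group (adjusted p = 0.117). Ebf1 was not called (log2 fold change 0.13, SE 0.13, adjusted p = 0.546).

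Of 20 pro-B and pre-B cell genes 5 were called higher, 4 of them shared, and 1 lower (median log2 fold change 0.0281). For Rag1 the values were 1283, 893 and 1178 CPM in control, 2571, 2122 and 1547 in BN1 and 2934, 2722 and 1933 in AFFN1. Rag1 and Rag2 cut antigen receptor genes for recombination, and Rag1 rose 1.86-fold in BN1 and 2.26-fold in AFFN1. Rag2 rose by 0.65 on the log2 scale, a call that ended without any 1 of 7 libraries (adjusted p up to 0.121). Fcrla was at 7.22, 4.69 and 13 CPM in the control libraries, 63.3, 53.5 and 42.3 in BN1 and 22.5, 24.6 and 17.2 in AFFN1. Fcrla, an Fc receptor-like protein of B cells, rose 6.32-fold in BN1 and 2.55-fold in AFFN1. Il7r, the receptor for the cytokine that B-cell precursors need, was not called (log2 fold change 0.21, SE 0.17, adjusted p = 0.421).

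All 5 called genes among the 8 tested of 12 later B-cell genes were shared rises (median log2 fold change 1.16). Cd38 stood at 1.46, 0.733 and 1.87 CPM in control, at 17.9, 7.16 and 6.69 in BN1 and at 20.8, 23.4 and 18.4 in AFFN1. Cd38, a surface NAD-consuming enzyme, rose 7.66-fold in BN1 and 15.1-fold in AFFN1. Cd22 was at 27.1, 21.9 and 14.9 CPM in the control libraries, 80.1, 53 and 32.9 in BN1 and 122, 122 and 111 in AFFN1. Cd22, an inhibitory receptor, was higher in AFFN1 than in BN1. Fcrl1 rose 2.35-fold in BN1 and 2.58-fold in AFFN1. Ighd stood at 22.7, 15 and 21.8 CPM in control, at 39.8, 26 and 29.4 in BN1 and at 31.7, 34.2 and 29.3 in AFFN1. Ighd, which encodes the constant region of the IgD heavy chain, rose 1.6-fold in BN1 and 1.59-fold in AFFN1, a call that ended without control 2 (adjusted p = 0.0668) and in the fit on all 18 libraries (adjusted p = 0.138). The mature B-cell gene Ms4a1 had 0, 1 and 0 reads in control, BN1 and AFFN1. Of 10 MHC class II presentation genes 7 were tested and 2 rose, while the median of the list was -0.344. For H2-Oa the values were 13.5, 11.8 and 18.3 CPM in control, 34.8, 26.9 and 30.4 in BN1 and 28.8, 27.2 and 24.6 in AFFN1. H2-Oa rose 2.11-fold in BN1 and 1.84-fold in AFFN1. H2-Ab1, which has close copies, had no read in control, 75 in BN1 and 18 in AFFN1, at least 24.22-fold and 5.888-fold higher. Ciita, the master regulator of these genes, was too low to test, with 1, 13 and 23 reads.

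Most tested progenitor genes were not called, and those that were called were higher. Of 16 tested stem and multipotent progenitor genes 4 were called higher, 3 of them shared, none lower and 12 not called (median 0.144). The untested genes of this list had at most 3 reads in any group. The list summed to 3289 to 3905 CPM in control, 4071 to 4212 in BN1 and 3885 to 4611 in AFFN1. Cd27 was at 1.65, 0.293 and 1.75 CPM in the control libraries, 8.96, 7.54 and 6.3 in BN1 and 14.5, 12 and 9.85 in AFFN1. Cd27, a receptor of the TNF receptor family, rose 5.98-fold in BN1 and 9.54-fold in AFFN1. Sox4 rose 1.25-fold in BN1 and 1.36-fold in AFFN1. Kit was not called (log2 fold change -0.26, SE 0.13, adjusted p = 0.213). Of 7 tested fetal progenitor genes 3 were called higher, 2 of them shared, and 4 were not called (median 0.47). The sums of the fetal list overlapped, at 1108 to 1379 CPM in control, 1162 to 1392 in BN1 and 1114 to 1211 in AFFN1. Lin28b stood at 0.127, 0.22 and 0.283 CPM in control, at 20.1, 21.9 and 19.4 in BN1 and at 3, 2.33 and 1.91 in AFFN1. Lin28b, which blocks let-7 microRNAs in fetal progenitors, was thus high in BN1 and modest in AFFN1. Hmga2 was at 3.99, 3.52 and 2.26 CPM in the control libraries, 20.3, 24.1 and 13 in BN1 and 11.8, 11.5 and 8.31 in AFFN1. Hmga2, a chromatin protein of fetal stem cells, rose 5.9-fold in BN1 and 3.25-fold in AFFN1.

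Among chemokines and homing receptors, 5 of 13 tested genes were called higher, 4 of them shared, and none lower (median 0.843). Ccr9 stood at 51.5, 26.6 and 38.8 CPM in control, at 295, 338 and 312 in BN1 and at 344, 328 and 244 in AFFN1. Ccr9, which responds to a chemokine of thymus and gut, rose 8.06-fold in BN1 and 7.82-fold in AFFN1. For Ccr7 the values were 11.2, 9.3 and 7.75 CPM in control, 24.9, 23.8 and 16 in BN1 and 33.1, 32.8 and 30.5 in AFFN1. Ccr7, which guides cells to lymph nodes, rose 2.3-fold in BN1 and 3.42-fold in AFFN1. Both genes also stand on the dendritic cell list, where they were the 2 called of 3 tested genes. Of 20 cytokine receptors and signalling genes 3 rose, all shared, and 4 were called lower, 3 of them shared (median 0.161). Tnfrsf13c was at 6.4, 7.62 and 4.7 CPM in the control libraries, 17.8, 13.5 and 9.93 in BN1 and 25.1, 22.5 and 18.6 in AFFN1. Tnfrsf13c, the receptor for the survival factor BAFF, rose 2.22-fold in BN1 and 3.55-fold in AFFN1. Stat5a stood at 87.3, 80.0 and 120.3 CPM in control, at 59.4, 62.5 and 55.1 in BN1 and at 63.2, 64.5 and 65.3 in AFFN1. Stat5a, which carries interleukin 7 signals, fell 1.63-fold in BN1 and 1.49-fold in AFFN1. Csf2rb2, which has a close copy, fell 1.72-fold in BN1 and 2-fold in AFFN1. Of 11 tested integrin genes Itgb3 fell in both, by 1.69 on the log2 scale and by 1.08 without control 3, and 1 more gene was called lower with overlapping groups.

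Of 17 tested interferon response genes 7 were called higher, 5 of them shared, and none lower (median 0.459). Zbp1 was at 18.2, 11.8 and 23.3 CPM in the control libraries, 38.7, 40.5 and 33.4 in BN1 and 71.3, 65.8 and 41.4 in AFFN1. Zbp1, a sensor of nucleic acids, rose 2.1-fold in BN1 and 3.33-fold in AFFN1. Usp18 stood at 74.3, 69.6 and 88.8 CPM in control, at 140.4, 167 and 125 in BN1 and at 152, 153 and 109.9 in AFFN1. For Ddx58 the values were 76.7, 66.8 and 86.9 CPM in control, 129, 134 and 119 in BN1 and 130.1, 141 and 102 in AFFN1. Usp18, a brake on interferon signalling, and Ddx58, which encodes the RNA sensor RIG-I, rose 1.85-fold in BN1 and 1.78-fold in AFFN1, and 1.66-fold in BN1 and 1.62-fold in AFFN1. Without the libraries numbered 3, 16 of the 17 were called higher. In the fit on all 18 libraries edgeR called none of them. None of the 18 immediate early and heat shock genes was called by edgeR or DESeq2, and 1 had an unadjusted p under 0.05.

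Regulators of the cell cycle fell more often than they rose, with 1 of 12 tested genes called higher and 4 lower, 2 of the latter shared (median -0.138). Cdkn1a was at 297, 283 and 291 CPM in the control libraries, 145, 142 and 162 in BN1 and 223, 210.2 and 242 in AFFN1. Cdkn1a, which encodes the cyclin-dependent kinase inhibitor p21, fell in each fusion and further in BN1. Tyms stood at 119, 125 and 97.1 CPM in control, at 78.1, 88.8 and 85.7 in BN1 and at 90.8, 90.4 and 84.4 in AFFN1. Tyms, which makes thymidylate for DNA synthesis, was the shared fall among 2 called of 18 DNA replication genes (median -0.124), and its call ended without control 1 or control 2 (adjusted p = 0.0608 and 0.0532). Of 18 mitosis genes 1 was called, higher and with overlapping groups. None of 20 Myc and ribosome biogenesis genes was called by edgeR, although 3 had an unadjusted p under 0.05, DESeq2 called 2 lower, and without the libraries numbered 3 edgeR called 19 lower. Myc itself was at 194 to 284 CPM in control, 190 to 267 in BN1 and 147 to 229 in AFFN1. Of 12 tested BCL2 family genes 1 was called lower with overlapping groups.

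Few genes were called in the complexes that the fusion partners belong to. Of 20 SWI/SNF subunit genes 1 was called, higher and with overlapping groups (median -0.00057). Brd9 was at 70.3, 70.8 and 77.1 CPM in the control libraries, 68.8, 74.6 and 70.8 in BN1 and 66.3, 68.9 and 66.6 in AFFN1. Of 15 super elongation complex genes 1 was called, the fall of Larp7 (log2 fold change -0.25, SE 0.06, adjusted p = 0.022), which ended without control 1, control 2, BN1 1, AFFN1 1 or AFFN1 2 (adjusted p up to 0.113). Aff1 stood at 185, 168 and 202 CPM in control, at 237, 207 and 243 in BN1 and at 245, 229 and 199.7 in AFFN1. Neither Brd9 nor Aff1 was called (adjusted p = 0.468 and 0.0536). How far reads of the fusion transcripts themselves were counted for these genes was not tested. Of 9 tested NUTM1 partners and BET genes none was called by edgeR, with 3 at an unadjusted p under 0.05 and 1 called lower by DESeq2. Of 20 polycomb genes 3 were called higher and 3 lower. The chromobox genes Cbx6 and Cbx7, of polycomb complexes, rose by 0.40 and 0.47 on the log2 scale. Neither of the 2 tested E protein inhibitors was called by edgeR or DESeq2, or had an unadjusted p under 0.05. Of 9 tested Notch pathway genes Dtx1 rose, 5.89-fold in BN1 and 2.8-fold in AFFN1, and no other was called. In the fit on all 18 libraries the calls of Ly6c2, Ccr9, Car2, Dtx1, Fcrla, Zbp1, Rag1, Rag2, H2-Oa, Usp18, Ddx58, Cbx7, Pbx3, Pbx2, Sox4, Larp7, Tyms, Cdkn1a and Csf2rb2 ended as well, at adjusted p = 0.0579 to 0.723.

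**Figure D4:**
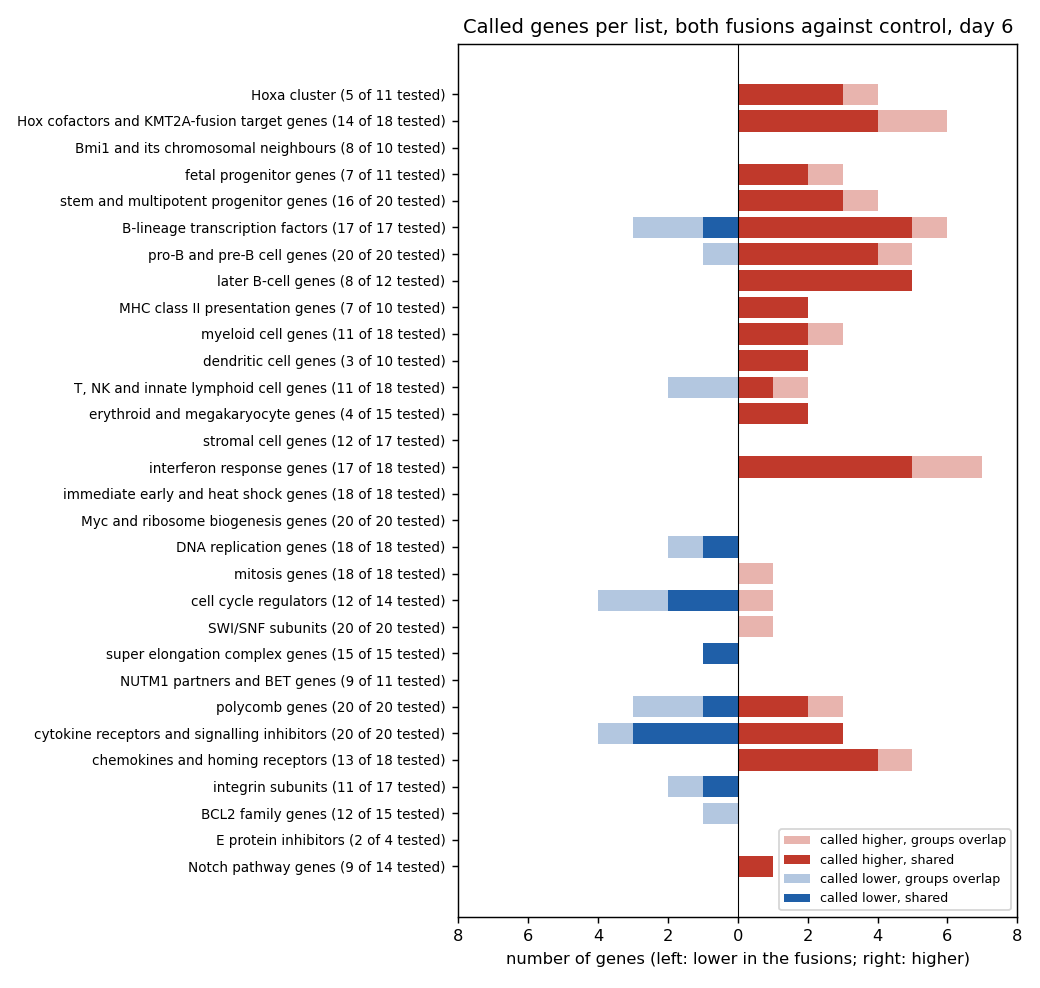
Number of genes per list called higher (right of 0) or lower (left of 0) for the mean of both fusions against control on day 6. The number tested of the list's genes is in brackets. Dark bars count shared genes and pale bars called genes whose groups overlap; the longest bar is that of interferon response genes, with 7 called higher and 5 of them shared.

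Markers of other cell types were followed in the same libraries, and in sums over sorted cells a change in the number of cells of a type and a change in RNA per cell cannot be told apart. The 18 myeloid genes summed to 122.3 to 262.3 CPM in control, 308.4 to 341.6 in BN1 and 339.1 to 458.6 in AFFN1. Without Ly6c2 the groups overlapped, at 116.1 to 254.8, 134.0 to 235.2 and 162.2 to 185.7 CPM. Of 11 tested 3 were called higher, with Ly6c2 and Cebpa shared, and the median log2 fold change was -0.043. Cebpa was at most at 1.07 CPM in any library, and its call ended without control 2 (adjusted p = 0.0755). The 10 dendritic cell genes, with Ccr9 and Ccr7 among them, summed to 178.2 to 238.8 CPM in control and 394.9 to 591.8 in the fusions. Without these 2 genes the sum was 127.1 to 192.3 CPM in control, 75.33 to 86.35 in BN1 and 171.4 to 214.4 in AFFN1. It was thus lower than control in BN1 and overlapped control in AFFN1. Nearly all of this rest came from 1 tested gene, which was not called, since the untested genes of the list had at most 29 reads in any group. Siglech had 2, 1 and 5 reads in control, BN1 and AFFN1 and Cd209a none. The 18 genes of T, NK and innate lymphoid cells summed to 341.8 to 448.2 CPM in control and 407.5 to 536.6 in the fusions, with 2 called higher and 2 lower of 11 tested. Lck, a kinase of T-cell receptor signalling that B-cell precursors also make, rose by 0.50 on the log2 scale, and Cd3e had 1 read in control and none in the fusions. Gata3 was too low to test, with 0 reads in control, 29 in BN1 and 28 in AFFN1. The 15 erythroid and megakaryocyte genes summed to 3.548 to 4.13 CPM in control, 34.13 to 35.78 in BN1 and 6.201 to 8.137 in AFFN1. Car2 made up 80.9 to 84.9% of this in BN1, while Car1 and Hba-a1 had no reads. Without Car2 the sum was 2.598 to 3.112 CPM in control, 5.158 to 6.704 in BN1 and 3.935 to 4.135 in AFFN1. Hbb-bt was the other shared rise of the list, by 0.91 on the log2 scale, and its call ended under 3 alternatives (adjusted p up to 0.445). None of 12 tested stromal genes was called by edgeR or DESeq2, none had an unadjusted p under 0.05, and their sum, 17.4 to 191.4 CPM, varied within each group. The part of such cells in the shared changes was not tested.

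Shared genes were called between the fusions more often than all tested genes, and those called were most often further from control in BN1. They were chosen in the same fit with the same estimates of spread, which favours genes of small spread. The higher shares called thus describe these genes and support nothing further. BN1 and AFFN1 were compared in the same fit, in which 1349 of all tested genes (11.2%) were called, or 787 and 725 without AFFN1 1 and AFFN1 2. Of the shared rises 105 were called between the fusions (14.1%), 76 of them higher in BN1. Of the shared falls 126 were called (22.1%), and 99 of these were lower in BN1. Over all genes called between the fusions 602 were higher and 747 lower in BN1. The fusions were within 1.5-fold of each other in 78.8% of the rises and 73.2% of the falls, against 84.1% of all tested genes. Thus a gene such as Hoxa9 differed by -0.22 on the log2 scale (SE 0.26), which was not called (adjusted p = 0.66). For Car2 the values were 0.95, 0.733 and 1.02 CPM in control, 27.8, 29.1 and 29 in BN1 and 4, 2.27 and 3.08 in AFFN1. In BN1 the level of Car2, a carbonic anhydrase, exceeded that in AFFN1 9.19-fold (log2 difference 3.20, SE 0.19, adjusted p = 1.01e-05). Lin28b was 8.47-fold higher (log2 difference 3.08, SE 0.20, adjusted p = 1.12e-05) and Gnb4 5.33-fold higher (log2 difference 2.41, SE 0.17, adjusted p = 1.57e-05). Among the falls, Spint2 was 5.09-fold and Sgce 5.39-fold lower in BN1 than in AFFN1. Cd22 and Flt3 were higher in AFFN1, by 1.09 and 0.63 on the log2 scale.

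The libraries of day 14 did not take part in the choice of genes. There 13 of 11657 tested genes were called (0.112%), 6 higher and 7 lower, and 1753 had an unadjusted p under 0.05. Of the 747 rises 695 were tested on day 14, and 536 of them (77.1%) had a positive change, against 48.3% of all genes tested on day 14. Of the 571 falls 544 were tested and 387 (71.1%) had a negative change, against 51.7%. The median log2 fold change of these genes was 0.231 for rises and -0.171 for falls. The sizes of both days are not compared, since the day 6 values chose the genes and are tilted towards large changes. None of the rises was called by edgeR, while 117 had an unadjusted p under 0.05 in the same direction and DESeq2 called 37, with none in the opposite direction. Of the falls 2 were called in the same direction, D630039A03Rik and Itgb3, while DESeq2 called 9 in the same and 7 in the opposite direction. All 6 fusion libraries lay on the same side of the controls again for 40 rises (5.76%, against 2.05% of all genes) and 17 falls (3.12%, against 2.37%), and on the opposite side for 2 and 8.

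Equal replicate numbers paired the libraries on day 14, and with the replicate number as a block 62 rises (8.92%) were called higher and 31 falls (5.7%) lower. Over all genes that fit called 2.14% higher and 3.01% lower, and it called 3 rises and 10 falls in the opposite direction. Zfp518b was on day 14 at 0.432, 0.324 and 0.538 CPM in control, 1.35, 1.79 and 3.26 in BN1 and 1.83, 1.63 and 1.98 in AFFN1. Zfp518b, a large rise on day 6, was thus higher in every fusion library on day 14 too, with a log2 fold change of 2.16 in the blocked fit (adjusted p = 0.023). Among the 15 largest rises named here only Zfp518b and Gpr34 kept separate groups on day 14. The largest, Gnb4, was then at 16.2, 2.37 and 3.88 CPM in control. Its log2 fold change in the blocked fit was 0.45, which was not called (adjusted p = 0.82). D630039A03Rik was on day 14 at 10.7, 4.26 and 7.53 CPM in control, 0.7, 0.434 and 0.543 in BN1 and 0.0537, 0.488 and 1.08 in AFFN1. Itgb3 was on day 14 at 8.2, 6.47 and 9.08 CPM in control, 2.91, 1.63 and 2.71 in BN1 and 2.04, 0.976 and 1.2 in AFFN1. Both genes were again lower in each fusion library. Rag1 was on day 14 at 168, 407 and 345 CPM in control, 1018, 1034 and 1289 in BN1 and 290.0, 623 and 962 in AFFN1. Rag1 rose in the blocked fit by 1.47 on the log2 scale (adjusted p = 0.031), although AFFN1 1 lay below 2 of the controls. Hoxa9 was on day 14 at 1.94, 0.216 and 0.777 CPM in control, 1.08, 1.35 and 3.26 in BN1 and 0.322, 0.705 and 0.6 in AFFN1. On day 14 the groups overlapped in Hoxa9, whose log2 fold change was 0.05, and it was not called there (adjusted p = 0.98). Spint2 was on day 14 at 17.1, 21.9 and 24.7 CPM in control, 22.7, 24.4 and 24 in BN1 and 41.1, 34.7 and 45.9 in AFFN1. Spint2, a fall of day 6, was higher in the fusions in the blocked fit, by 0.56 (adjusted p = 0.039).

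Control 1 and AFFN1 1 of day 14 stood apart in interferon response genes. Usp18 was on day 14 at 50.7, 1.08 and 0.956 CPM in control, 0.431, 0.271 and 0.326 in BN1 and 52.5, 0.542 and 0.54 in AFFN1. Only these libraries had more than 2 CPM of Usp18 on day 14. Ly6c2 was likewise at 128 and 210 CPM in them and at 1.08 to 2.57 in the other 7. Without the 3 libraries numbered 1 the change had the same sign in 75.1% of the tested rises and 66.4% of the tested falls, against 48.2% and 51.8% of all genes.

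**Figure D5:**
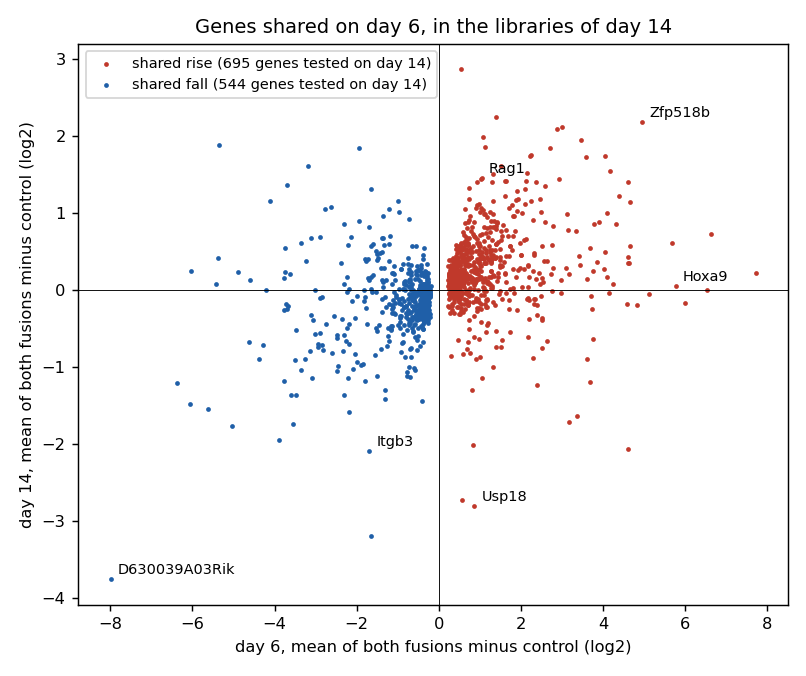
Log2 fold change of the mean of both fusions against control on day 6 (horizontal) and on day 14 (vertical, without the block), in separate libraries. Each point is 1 gene shared on day 6 and tested on day 14, red for the 695 rises and blue for the 544 falls; 536 red points lie above 0 and 387 blue points below it.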

How the data were processed

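RNA was measured by sequencing of poly(A)-selected, stranded libraries of sorted cells, per the labels' protocols. The authors deposited expected counts per gene, an estimate that can be fractional. The submitters' processing notes name STAR, RSEM, DESeq2 and build mm10. Tool versions, the gene annotation and whether counting used strand were not given in the sources used here. Per library 1.74 to 2.12% of values were fractional, and counts were rounded for the tests. In R 4.3.3, edgeR 4.0.16 was run on the 9 libraries of day 6 with filterByExpr by group, TMM, robust quasi-likelihood fits and Benjamini-Hochberg adjustment over all tested genes, two-sided. The SE of a log2 fold change was taken from the fold change and its F statistic. Gene positions came from GENCODE M21, in which 99.8% of the 32285 identifiers were found. The script was tested on simulated data.

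The members, the 30 gene lists and the tests were chosen with earlier results of these data known. Genes named were the 15 rises and 15 falls with the largest smaller-of-both fold change among shared genes with at least 5 CPM (in the lower fusion group for a rise, in control for a fall), a set of fixed genes, and up to 4 shared genes of each list. Genes that are not reported here were passed over and the next taken, and some others are not named in the text. Others are named where the text says that they were chosen after their values were seen, or as markers and untested list genes.

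Whether equal replicate numbers pair libraries was checked on deviations from group means. On day 14 libraries of equal number correlated at 0.317 to 0.686 and others at -0.556 to 0.0424, and the labels give them a shared code. On day 6 the ranges were -0.409 to 0.382 and -0.423 to 0.504. Equal numbers of control and BN1 correlated at 0.202 to 0.382, but those of AFFN1 with either group at -0.409 to 0.262, so the numbers were not taken as pairs across the 3 groups. Alternatives were RLE scaling, no filter, DESeq2 1.42.0, the replicate block, a fit on all 18 libraries, the fusions as 1 group, and leaving out libraries.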

Additional observations from a re-analysis of the deposited data

Results flagged for a closer look

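In 16 named genes that were shared on day 6 the effects of the fusions differed from each other by edgeR's test of BN1 against AFFN1 (adjusted p under 0.05). Differences are BN1 minus AFFN1 on the log2 scale. Among the rises BN1 was higher for Car2 (3.20), Lin28b (3.08), Gnb4 (2.41), Klhl22 (1.80), Pafah1b3 (1.65), Fcrla (1.31), Hbb-bt (0.89), Fgf13 (0.69) and Bach2 (0.69). AFFN1 was higher for the rises Cd22 (-1.09) and Flt3 (-0.63). Among the falls BN1 was lower for D630039A03Rik (-5.62, a fitted value that rests on 0 reads in BN1 and is no bound), Sgce (-2.43), Spint2 (-2.35), Dnajc6 (-1.48) and Cdkn1a (-0.59). No named shared gene had its fusion libraries on the opposite side of the controls on day 14.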

How the results depend on the processing

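Of the 75 named shared genes 48 stayed past the threshold in the same direction under all alternatives run and none reversed. The fit on all 18 libraries ended most of the other calls. In 14 of 86 shared genes examined 1 library moved the averaged fold by over 1.5 times, and all of these but Vat1l stayed past the threshold without it. Of the 1318 shared genes 576 (43.7%) were kept under RLE, no filter, DESeq2, the replicate block, the fit on all 18 libraries and the omission of each single library. The count of genes called on day 6 was 945 in the fit on all 18 libraries and 918 with the fusions as 1 group (63.9% of them higher, against 52.2%), and 1111 to 4469 when libraries were left out, with 3206 without control 3 alone. The shared genes numbered 717 and 869 in those fits, 727 when each fusion had to be called alone, and 941 to 3972 when libraries were left out, with 2675 without control 3 alone and the highest without the 3 libraries numbered 3. BN1 against AFFN1 gave 624 calls in the fit on all 18 libraries and 725 to 1897 when libraries were left out. With the replicate block day 6 gave 1676 calls and 1180 shared genes, against 1963 and 1318. On day 14 the count of 13 became 600 with the replicate block, 23 without the filter, 297 by DESeq2 and 1 to 19 when single libraries were left out, and 27 without all 3 libraries numbered 1, an alternative chosen after seeing the data. Bmi1, not called, changed sign without BN1 3 (-0.01), AFFN1 3 (-0.02) and all libraries numbered 3 (-0.05), with 0.06 at most, without AFFN1 1. The cause of these changes was not tested, beyond the smaller number of libraries. Depth limits genes with few reads per library. The filter removed genes that did not reach 0.631 CPM in 3 libraries, so tested genes could still have few or no reads in a group.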
